A study of Mus musculus with 2 samples.

Results

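Splenic NK cell preparations can carry cells of other lineages, and the cells described here are barcodes that held transcripts of the red cell lineage. They were taken from 1 droplet library of spleen cells of wild-type mice, prepared for natural killer (NK) cells, in which all cells shared genotype and tissue and no treatment was compared. Red cells had been lysed, and antibodies, including some against erythroid cells, had been used to hold back other lineages. A second library of the series was not analysed here. Cells of different mice were combined with lipid tags, and no label ties a tag to a mouse, so the 3 tags are used as 3 replicates of 1 library whose spread may be technical. Members were selected on measured UMIs: a member is a barcode with at least 1 unique molecular identifier (UMI, 1 counted transcript) of each of Klf1, Car1 and Car2 and with 0 UMIs of the NK receptor gene Klre1. Barcodes were kept with 1 tag over its cutoff, between 500 and 6000 genes seen and no more than 10% of UMIs from mitochondrial genes, and 120 of these 11694 were members (1.03%, exact binomial 95% interval 0.852 to 1.23%). Tag 1 held 25 members among 3599 barcodes (0.695%), tag 2 held 22 among 4210 (0.523%) and tag 3 held 73 among 3885 (1.88%), which gives 1.03% ± 0.739 (SD, n = 3). The intervals cover counting error only, and the share is that of cells left after lysis and antibody selection.

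Red cells form in steps. Early precursors carry the receptors Kit and Epor and divide fast; GATA1, TAL1 and KLF1 then switch on haem and globin genes, and in the last steps the nucleus is expelled and little but haemoglobin remains. In the mouse the spleen makes red cells alongside the bone marrow, above all under stress. KLF1 is an activator of red cell genes that binds CACCC letters in DNA, GATA1 binds GATA letters, and Car1 and Car2 encode carbonic anhydrases, of which CAR1 is an early marker of the lineage in mice.

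The DNA just before 6 genes of that programme is printed here because 2 of them (Klf1 and Epor) lead the account of stage, 2 (Hbb-bs and Hba-a1) carry the haemoglobin result and Gata1 and Rhd stand for the lineage factors and the red cell surface. Each run is the 150 bases before the annotated start, 5′ to 3′ on the strand of the gene, from RefSeq's annotation of GRCm38.p6. Capitals mark CACCC and GATAA, searched on both strands, so that GGGTG and TTATC are the same letters read on the other strand. The windows lie at chr8:84901832-84901981 (plus strand) for Klf1, at chr9:21963577-21963726 (minus strand) for Epor and at chrX:7967911-7968060 (minus strand) for Gata1. Those of Hbb-bs, Hba-a1 and Rhd lie at chr7:103827929-103828078 (minus strand), chr11:32283522-32283671 (plus strand) and chr4:134864386-134864535 (plus strand).
Klf1: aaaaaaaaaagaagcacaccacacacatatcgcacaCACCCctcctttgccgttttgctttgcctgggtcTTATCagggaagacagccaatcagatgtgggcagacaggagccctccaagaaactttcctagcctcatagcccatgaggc
Epor: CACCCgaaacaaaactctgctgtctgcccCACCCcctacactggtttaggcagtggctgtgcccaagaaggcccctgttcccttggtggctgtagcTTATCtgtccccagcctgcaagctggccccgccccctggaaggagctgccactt
Gata1: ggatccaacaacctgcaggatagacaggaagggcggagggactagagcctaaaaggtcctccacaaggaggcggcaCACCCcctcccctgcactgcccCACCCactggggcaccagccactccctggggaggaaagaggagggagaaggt
Hbb-bs: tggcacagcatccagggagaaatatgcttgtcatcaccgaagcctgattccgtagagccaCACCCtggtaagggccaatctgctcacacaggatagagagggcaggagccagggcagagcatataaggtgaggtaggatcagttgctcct
Hba-a1: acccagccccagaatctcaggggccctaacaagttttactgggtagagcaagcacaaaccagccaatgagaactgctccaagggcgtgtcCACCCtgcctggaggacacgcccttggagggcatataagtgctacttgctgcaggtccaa
Rhd: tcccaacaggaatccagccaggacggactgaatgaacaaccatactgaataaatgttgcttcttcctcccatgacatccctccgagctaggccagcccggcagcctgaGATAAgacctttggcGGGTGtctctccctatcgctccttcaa

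All 6 windows held CACCC, as did 37.4% of the 32851 windows of this length in the table. GATAA stood in those of Klf1, Epor and Rhd, which also held CACCC, against 13.3% of all windows for GATAA and 3.99% for both. In Klf1 the GATAA letters began 80 bases before the start and in Epor 54 bases before it. A match is a description of letters, not of a bound site.

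The counts that chose the members are given as a description. Klf1 had 172, 169 and 169.9 CPM (the depth-scaled count of the field, from the summed UMIs of all cells of a tag) in members of tags 1, 2 and 3, against 2.51, 1.34 and 5.29 CPM in the other 11574 barcodes. Car1 had 4739.8, 3525 and 4157 CPM in members and 60.6, 43.3 and 139 CPM in other barcodes. Car2 had 1199, 1022 and 1826 CPM in members and 214, 191 and 226 CPM in other barcodes. Klf1 alone had a UMI in 198 barcodes; Car1 as well in 156, and Car2 as well in 152, of which 32 had Klre1. Just inside the rule, the 19 members with exactly 1 Klf1 UMI had 57.2 CPM of Gata1, and the 97 members with at least 2 UMIs of each gene had 82.4 CPM. Just outside it, the 9 barcodes with Klf1 and only 1 of the Car genes had 24.5 CPM of Gata1, and the 32 that met the rule but for Klre1 had 75.7 CPM of Gata1 and 650.2 CPM of the NK protease gene Gzma. Adult globin genes summed to 23751 CPM in those 9 barcodes and 2025 CPM in those 32. They summed to 26.7 CPM in the 19 members and 1453 CPM in the 97 members. These are pooled sums, so a few cells can set them, and the 9 barcodes had a median total of only 8912 UMIs. Among all barcodes outside the rule, 6 had 100 or more globin UMIs, 29534 together. The rule thus left out globin-rich barcodes, and the stage described below is that of the cells it kept.

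Members were deep. Their median total was 32614 UMIs (2551 to 57447) and 5139.5 genes, against 4180 UMIs and 1917 genes in the other barcodes, and the median mitochondrial share was 1.28% in members and 1.38% in other barcodes. The upper limit of 6000 genes passed through these cells: 73 of the 155 single-tag barcodes over 6000 genes met the same rule for Klf1, Car1, Car2 and Klre1. No doublet caller was used. Barcodes with several tags were left out, 13 of which met the rule, and 2 cells of the same tag in 1 droplet cannot be told from 1 cell.

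The label of erythroid precursors was checked against markers. Of the 9 erythroid markers that the rule did not use, 7 reached 50 CPM in members, and Gata1, Epor, Ermap, Rhag, Hbb-bs and Hba-a1 were at least 2-fold higher in each of the 3 tags (20 CPM added to both sides). For Hbb-bs and Hba-a1 this rested on 2 members of tag 3: without them tag 3 had 92.8 and 175 CPM in members, below the 691 and 374 CPM of other barcodes. The globin-rich barcodes among those others, described below, were kept in these values. Over all genes of at least 50 CPM in members, 561 of 2642 (21.2%) were at least 2-fold higher in each tag; the rule used this contrast, so no test is given and nothing is read from that share. Hbb-bs, which the label also names, had no UMI in most members: 32 of 120 had one, and Hba-a1 was present in 35. The remaining NK markers were lower but not absent, and no member lacked all of them. Their summed level was 329 to 398 CPM in members and 17757 to 22345 CPM in other barcodes. It was 727 to 1088 CPM in barcodes of B cells (Cd79a and Ebf1 with a UMI, Klf1 and Klre1 at 0), which should lack them. Those B cell barcodes were shallower, with a median total of 3686 UMIs against 32614 in members. With cells thinned at random to 10500 UMIs, Ccl5 had a UMI in 82.4% of 108 members and 94.4% of 36 B cell barcodes. For Gzma the shares were 49.1% and 61.1%. Summed markers of T cells, B cells, conventional dendritic cells, monocytes, neutrophils, stromal and endothelial cells were each at most 9.72 CPM in every tag of the members; Cd8a, Xcr1, C1qa and Ly6g were at 0. Platelet markers summed to 7.22 to 16.2 CPM, mast cell markers to 4.25 to 8.47 CPM and plasma cell markers to 16.9 to 35.6 CPM.

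Haemoglobin transcripts were spread very unevenly over the members. The 4 adult globin genes (Hba-a1, Hba-a2, Hbb-bs and Hbb-bt, the alpha and beta chains of adult haemoglobin) gave 14269 UMIs in all members, and 13128 of these (92.0%) came from 2 members of tag 3. One of the pair had 9535 globin UMIs among 12423 (76.8% of its UMIs) with 1170 genes detected, and the other had 3593 among 35213 (10.2%). At the other end, 60 members had no globin UMI at all, 23 had 1, 21 had 2 to 9, 9 had 10 to 99 and 7 had 100 or more.

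**Figure D1:**
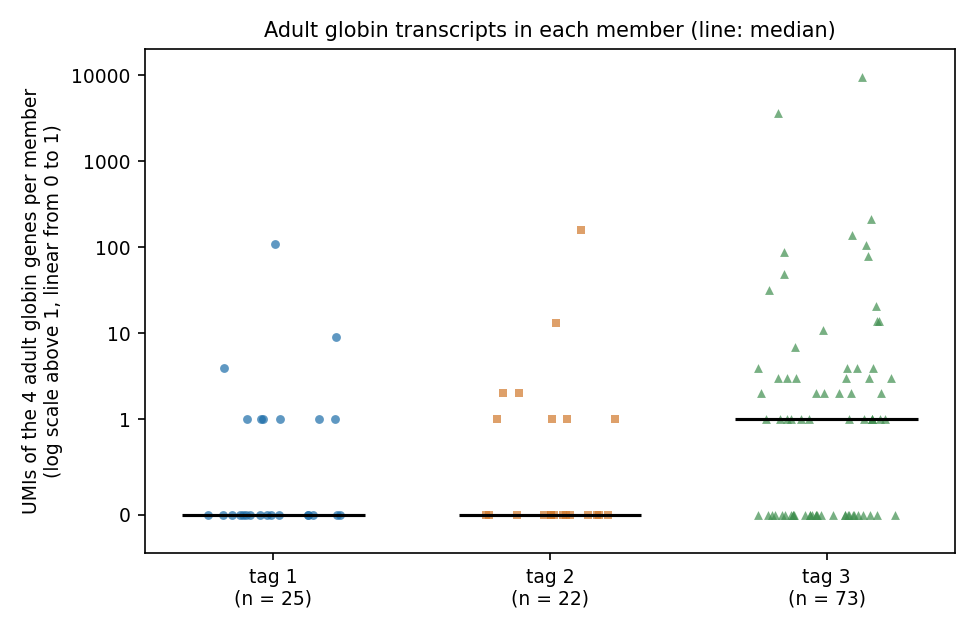
UMIs of the 4 adult globin genes in each of the 120 members (vertical axis, log scale above 1 and linear from 0 to 1) by lipid tag (horizontal axis); each point is 1 member and the line is the median of the tag. The medians are 0, 0 and 1 UMI, and 2 members of tag 3 stand alone at 9535 and 3593 UMIs.

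Summed over the 4 genes, globin made up 206, 307 and 5930.0 CPM in members of tags 1, 2 and 3, against 23.8, 58.2 and 1514 CPM in the other barcodes. The value of tag 3 stood far above the rest in both classes. Without the 2 richest members it was 361 CPM in members. Without the 6 barcodes outside the rule that held 100 or more globin UMIs, the other barcodes had 42.5 CPM over all tags. Members without the 2 richest lay above that in each tag, although the remaining members with 100 or more were kept. Hbb-bs had 139, 114 and 2769 CPM in members and 9.36, 22.1 and 691 CPM in other barcodes. Its log2 ratio of members over other barcodes was 2.86. It turned to -1.06 when the 2 richest members were left out and the 6 globin-rich other barcodes were kept. Hba-a1 had 38.9, 93.2 and 1576 CPM in members, against 8.91, 22.0 and 374 CPM in other barcodes. Without those 2 members tag 3 had 175 CPM, below the other barcodes of that tag, and the log2 ratio over all tags was 0.024 in place of 2.81. Here too the 6 globin-rich other barcodes were kept. Reads of Hba-a1 and Hba-a2, and of Hbb-bs and Hbb-bt, come from near-identical copies, so the split within each pair is uncertain. None of the 6 embryonic and minor globin genes measured reached 50 CPM in members, and 5 of them were at 0.

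Globin UMIs were seen in each class examined. A globin UMI was found in 50% of members (40.7 to 59.3%), 9.48% of NK barcodes (Klre1 with a UMI, Klf1 at 0; median 4119.5 UMIs) and 10.5% of B cell barcodes (median 3686 UMIs). After random thinning of each cell to 10500 UMIs the shares were 36.1% of 108 members (27.1 to 45.9%), 16.9% of 528 NK barcodes and 16.7% of 36 B cell barcodes; this left out 12 members, 8850 NK barcodes and 525 B cell barcodes that were shallower. Globin summed to 34.7 CPM in NK barcodes and 36.4 CPM in B cell barcodes, below each tag of the members. Barcodes with the platelet genes Pf4 and Ppbp, with Klf1 and Klre1 at 0 (n = 76), went the other way: 65.8% had a globin UMI (54.0 to 76.3%), and 57.1% of the 14 deep enough after thinning (28.9 to 82.3%). Their globin sum was 1603, 1099 and 582 CPM by tag, above the members of tags 1 and 2 and, without the 2 globin-richest members, of tag 3; their median total was 2404 UMIs.

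Haem is built from glycine and succinyl-CoA by a chain of enzymes. Of that chain Alad, Urod and Cpox were higher in members than in other barcodes, while the red cell form of the first enzyme was seen in few members. Alas2, the red cell form of the first enzyme, had UMIs in 3 of 120 members, and 25 of its 26 UMIs there came from the 2 globin-richest members. Alas1, its general form, had 11.3, 10.2 and 8.5 CPM in members, against 10.3, 9.12 and 10.2 CPM in other barcodes, with ranges that overlap. Alad, the second enzyme, had 222, 168 and 226 CPM in members and 28, 29.5 and 32.2 CPM in other barcodes. Every tag of the members lay above every tag of the other barcodes. Urod averaged 119.6 ± 10.2 CPM in members and 22.5 ± 2.45 CPM in other barcodes, and Cpox 129 ± 37.1 CPM and 18.7 ± 5.22 CPM (SD, n = 3 tags each). Uros and Ppox stayed below 50 CPM. Fech, which inserts the iron, averaged 44.2 ± 17.7 CPM in members and 14.1 ± 2.90 CPM in other barcodes. Of the 9 enzymes 5, Fech included, reached 50 CPM over all members and 4 of these, Alad, Urod and Cpox among them, were at least 2-fold higher in each tag. Over all genes of that level in members the share was 21.2%. The median log2 ratio of the 5 was 2.14, against -0.39 over the 4338 genes of at least 50 CPM in either class.

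Some genes that move iron and haem were also higher in members than in other barcodes. Of 22 measured, 10 reached 50 CPM in members and 5 were at least 2-fold higher in each tag, beside 21.2% of all genes of that level. Among the 5 were Tmem14c, a carrier of the haem precursor in mitochondria, and Glrx5, which acts in iron-sulphur cluster assembly. Hebp1, a haem-binding protein, and Steap3, an iron reductase of red cell precursors, were others. Tmem14c had 486, 393 and 562 CPM in members and 115, 114 and 127 CPM in other barcodes. Tfrc, the transferrin receptor through which red cell precursors take up iron, differed between the tags of the members, with 21.1, 50.8 and 71.8 CPM, against 17.3, 13 and 17.3 CPM in other barcodes. The mitochondrial iron importer Slc25a37 had 21.3 ± 9.02 CPM in members and 12.9 ± 2.56 CPM in other barcodes, and Hmox1, which breaks haem down, was at 0 in members, which allows at most 0.842 CPM. Summed over the 22 genes, members had 5261, 4849 and 5893 CPM by tag and other barcodes 2365, 2571 and 2606 CPM. The barcodes with Pf4 and Ppbp had 7708, 11090 and 6045 CPM, above the members in each tag. A high sum of these genes was therefore not particular to the members.

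The lineage factors other than Klf1 were present in all tags. Gata1 had 77.8, 71.2 and 82.8 CPM in members and 1.56, 2.00 and 3.94 CPM in other barcodes. Tal1, which works in one complex with Gata1 and Lmo2, had 76.1, 67.8 and 81.6 CPM in members and 3.23, 3.29 and 6.63 CPM in other barcodes. The 3 tags of the members lay close together for both genes and far from the other barcodes. Of 18 factors without Klf1, 11 reached 50 CPM in members. Gata1, Tal1, Lmo2, Gfi1b, Bcl11a, Hemgn and E2f4 were at least 2-fold higher in each tag, beside 21.2% of all genes of that level. Klf3, a repressor that binds the same letters as KLF1, was at least 2-fold lower, beside 33.2% of all genes of at least 50 CPM in other barcodes. Lmo2 had 290.0, 305 and 279 CPM in members and 24.8, 19.9 and 37.9 CPM in other barcodes. Bcl11a, a repressor of fetal-type globin genes in humans, averaged 239 ± 40.4 CPM in members and 47.7 ± 18.7 CPM in other barcodes. Zfpm1, which encodes the Gata1 partner FOG1, averaged 172 ± 20.4 CPM in members and 73.3 ± 4.64 CPM in other barcodes. Summed over the 18 factors, members had 1573 ± 117 CPM and other barcodes 814 ± 22.9 CPM (SD over the tags). Barcodes with Kit and Cd34 but without Klf1 and Klre1 (n = 44) had 1682 ± 148 CPM. The summed level was therefore not particular to the members.

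Among receptor genes, that of erythropoietin, the hormone that keeps red cell precursors alive, was higher in members. Epor had 51.8, 61.0 and 60.3 CPM in members and 1.11, 1.16 and 2.39 CPM in other barcodes; a UMI was seen in 89 of 120 members. Kit, the receptor of stem cell factor on early precursors, had 84.2, 137 and 87.5 CPM in members and 58.3, 50.3 and 64.5 CPM in other barcodes, which include NK and other Kit-bearing cells, and its log2 ratio was 0.57. Downstream of these receptors Jak2 and Stat5a averaged 69.4 ± 37.4 and 44.3 ± 5.12 CPM in members and 102 ± 4.16 and 23.6 ± 1.82 CPM in other barcodes. Of the 13 genes of erythropoietin and Kit signalling, 7 reached 50 CPM in members, Epor alone was at least 2-fold higher in each tag, and Pim1, Mcl1 and Lyn were at least 2-fold lower. Over all genes of at least 50 CPM in members 21.2% were higher by that rule. Over genes of at least 50 CPM in other barcodes, 1178 of 3547 (33.2%) were lower by it.

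Some surface genes of red cells were seen in all tags of the members and others in few cells. Ermap, an adhesion protein of red cell precursors, had 157, 227 and 193 CPM in members and 2.56, 1.74 and 10.1 CPM in other barcodes. The blood group gene Rhd had 98.8, 96.6 and 135 CPM in members and 3.23, 2.76 and 8.43 CPM in other barcodes. With Aqp1, a water channel, Cldn13, Rhag, Mfsd2b and Tspan33, these were the 7 of 9 genes past 50 CPM that were at least 2-fold higher in each tag, from a list of 24. The share over all genes of that level was 21.2%. Slc4a1, the anion exchanger of mature red cells, had UMIs in 2 members, the same 2 that held most globin, with 42 UMIs. Ank1, a part of the membrane skeleton, averaged 37.2 ± 22.9 CPM in members and 3.11 ± 0.922 CPM in other barcodes (SD, n = 3 tags each).

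**Figure D2:**
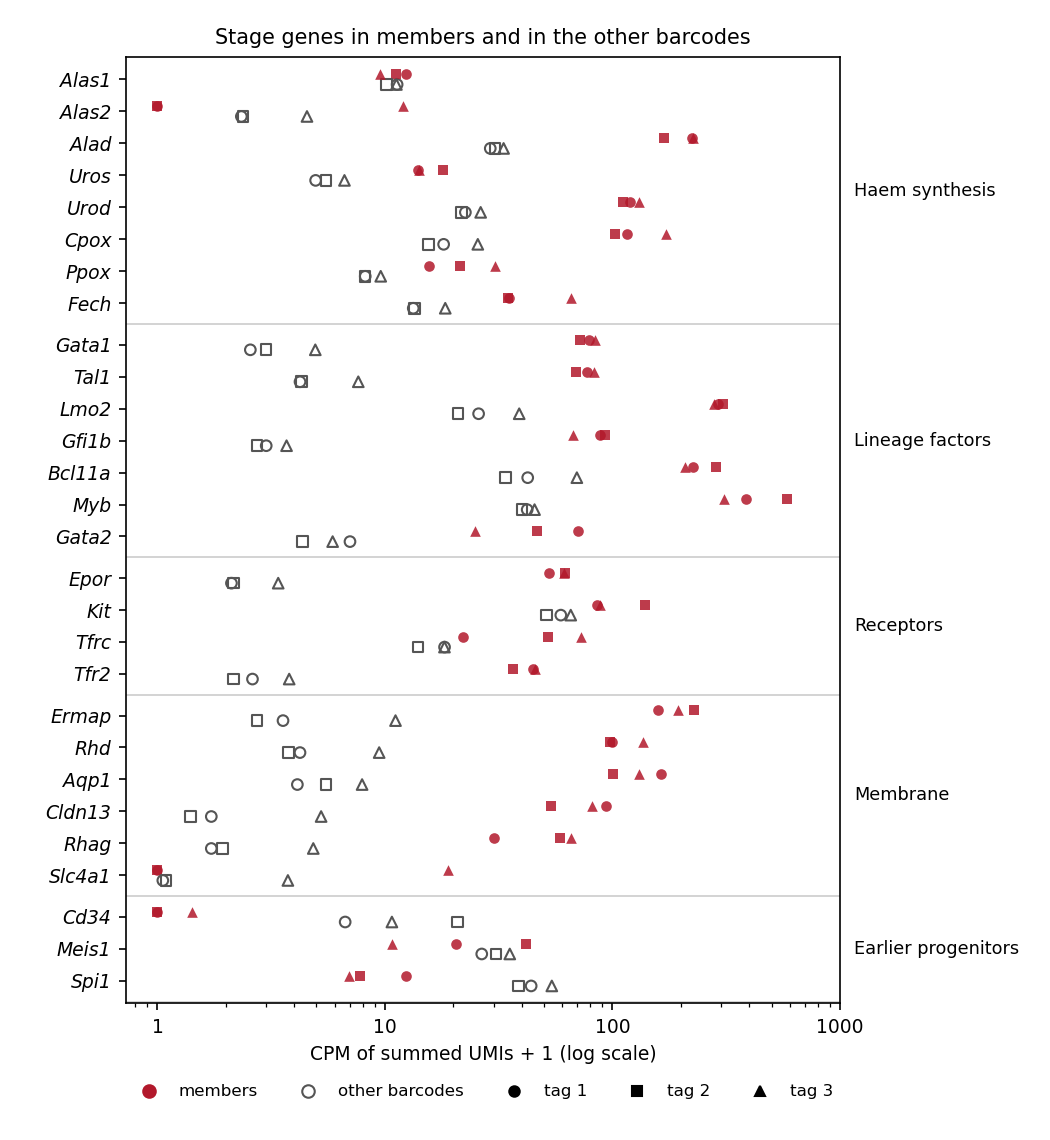
Levels of haem synthesis, lineage factor, receptor, membrane and earlier progenitor genes in members (filled) and other barcodes (open); the horizontal axis is CPM plus 1 on a log scale, and circle, square and triangle are tags 1, 2 and 3. For Gata1, Epor, Alad and Ermap all 3 tags of the members lie to the right of all other barcodes, while Alas2 and Slc4a1 are at 0 in members of tags 1 and 2.

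Genes of earlier and later stages were seen unevenly. Myb, which keeps progenitors dividing, had 384, 583 and 307 CPM in members and 41.2, 39.1 and 44.4 CPM in other barcodes. Cd34, carried by earlier progenitors, had a UMI in 1 of 120 members, whereas barcodes chosen for Kit and Cd34 without Klf1 (n = 44) had 265 CPM. Gata2, which precedes Gata1 in the lineage, had 69.7, 45.8 and 23.8 CPM in members and 6.02, 3.34 and 4.89 CPM in other barcodes. Of 12 early progenitor genes 4 reached 50 CPM in members, with Myb at least 2-fold higher and Runx1 at least 2-fold lower in each tag. Over all genes 21.2% of those at 50 CPM in members were higher and 33.2% of those at 50 CPM in other barcodes were lower. Nothing is therefore read from the counts of the early and late lists. Of 17 genes of late erythroblasts, 2 reached 50 CPM in members and Isg20 was higher by that rule, with 50.2, 52.5 and 88.3 CPM against 7.24, 6.36 and 13.1 CPM in other barcodes; Xpo7 was lower.

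Of 12 genes of red cell enzymes and antioxidants 7 reached 50 CPM in members, and 3 of the 7 were at least 2-fold higher in each tag, beside 21.2% of all genes of that level. Prdx2, a peroxiredoxin that is abundant in red cells, had 834, 792 and 1036 CPM in members and 113, 117 and 153 CPM in other barcodes. Gpx1 averaged 1197 ± 146 CPM in members and 220.3 ± 50.4 CPM in other barcodes, and Blvrb, a reductase of biliverdin and flavin, 853 ± 131 CPM and 43.7 ± 19.7 CPM. These were the 3 genes. Without the rule's own genes, the 15 genes with the largest ratio were Mt1, Blvrb, C1qtnf12, Slc25a21, Mt2, Atpif1, Hmgb3, Gatm, Ermap, Dut, Cox6b2, Gstm5, Hbb-bs, Bex4 and Tnfaip2, from 16-fold to 7.16-fold. The metallothionein gene Mt1, which binds zinc and copper, had 1131, 807 and 1158 CPM in members and 30.3, 55.1 and 60.6 CPM in other barcodes. Atpif1, the inhibitor of mitochondrial ATP synthase, had 2240.3, 2088 and 2255 CPM in members and 159, 177 and 248 CPM in other barcodes. The 5 with the smallest ratio were Gzma (68.7-fold lower), Gm2682, Igkc, Cd74 and Ccl5, which, apart from Gm2682, are genes of NK cells, B cells and antigen presentation.

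Transcripts of dividing cells were frequent in members. Of 44 S phase genes, 33 reached 50 CPM in members and 20 of them were at least 2-fold higher in each tag. From 52 genes of G2 and M phase, 29 reached it and 19 were higher. The share over all genes of that level was 21.2%. Mki67, a marker of dividing cells, had 177, 161 and 246 CPM in members and 42.9, 40.6 and 50.5 CPM in other barcodes. Mcm7, part of the helicase that opens DNA for copying, had 212, 207 and 258 CPM in members and 36.6, 36.3 and 43.9 CPM in other barcodes. The kinase genes Cdk4 and Cdk6 averaged 336 ± 21.8 and 430.4 ± 110.0 CPM in members and 65.3 ± 5.63 and 95.2 ± 3.90 CPM in other barcodes. Ccne1, Ccna2 and Ccnb1 were also at least 2-fold higher in each tag, and Ccnd3 and the inhibitors Cdkn1b and Cdkn2d at least 2-fold lower. Ccnd3, a cyclin of lymphoid cells that also acts in red cell precursors of mice, had 117, 192 and 102 CPM in members and 852, 846 and 866 CPM in other barcodes.

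Depth sets the share of cells with a transcript, so cells were thinned to 10500 UMIs. Mki67 then had a UMI in 63.0% of 108 members (53.1 to 72.1%), in 27.7% of NK barcodes (23.9 to 31.7%) and in 16.7% of B cell barcodes (6.4 to 32.8%). By tag the members gave 52.6%, 47.6% and 70.6%. Unthinned, the share in members was 76.7%. At 2500 UMIs it was 22.5% of 120 members and 2.38% of 8328 NK barcodes. In barcodes with Klre1, Mki67 and Top2a, called cycling NK barcodes here, the share was 95.3%, since the gate used that gene. The summed S phase UMIs per cell had a median of 41 in members (0 to 88), 60 in cycling NK barcodes, 11 in NK barcodes and 18 in the Kit and Cd34 barcodes. For G2 and M phase the medians were 60 in members (13 to 200), 118 in cycling NK barcodes, 17 in NK barcodes and 14 in the Kit and Cd34 barcodes. The quartiles were 25.5 and 55 S phase UMIs in members and 7 and 28 in NK barcodes. NK barcodes deep enough for this were 528 of 9378, so they are the deepest of their class.

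**Figure D3:**
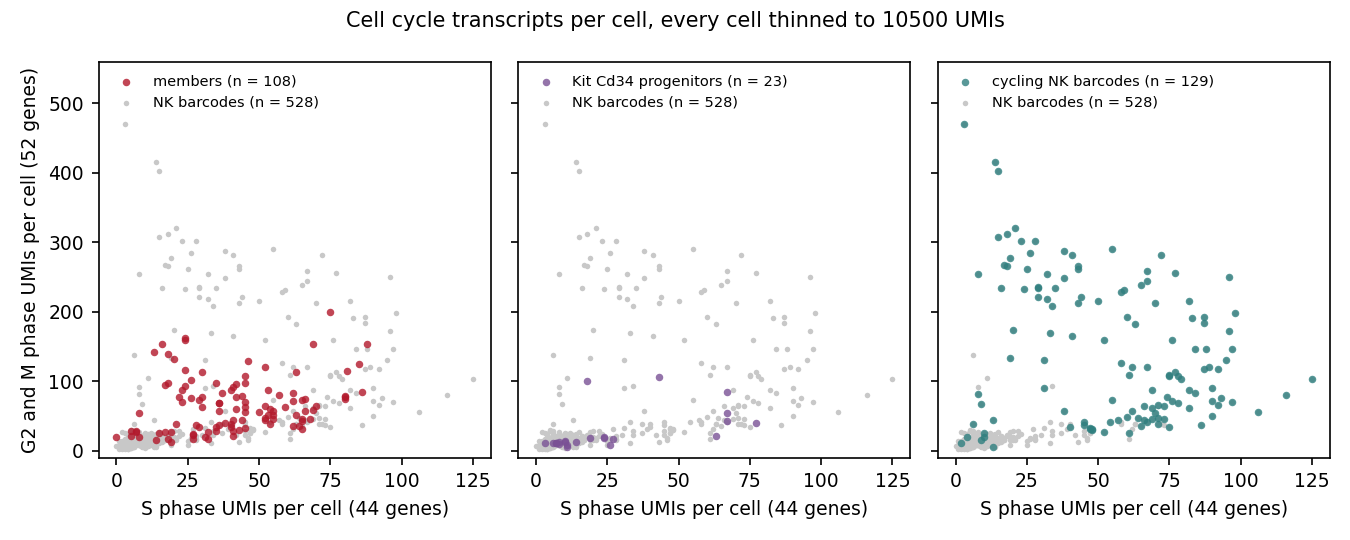
Summed UMIs of 44 S phase genes (horizontal axis) and 52 G2 and M phase genes (vertical axis) per cell after thinning to 10500 UMIs; each coloured point is a member, a Kit and Cd34 barcode or a cycling NK barcode, and grey points are all NK barcodes of that depth, cycling ones included. Members had medians of 41 S phase and 60 G2 and M phase UMIs and reached 88 and 200. Cycling NK barcodes, whose gate used Mki67 and Top2a, had medians of 60 and 118 and reached 125 and 470.

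The members were then split by Kit, which the rule had not used, to see what differs between those with more and with less of this early receptor transcript. At 10500 UMIs, 57 members had a Kit UMI (9, 14 and 34 by tag) and 51 had none (10, 7 and 34), with median totals of 32736 and 36888 UMIs. In full counts 90 of 120 members had a Kit UMI and 30 had none (10, 3 and 17 by tag). Some members called Kit-negative here therefore held Kit transcripts. A minimum of 10 cells in each class and tag had been planned for this test and was not reached; it was run with at least 5, a choice made after the class sizes were seen. Full counts were summed per class and tag and fitted with edgeR's quasi-likelihood test, with the tag as block, and p-values were adjusted after Benjamini and Hochberg over 4250 genes. In Kit-positive members 212 genes rose (4.99%) and 121 fell (2.85%), and 328 of these 333 moved the same way in 3 of 3 tags; 1036 genes had an unadjusted p below 0.05. Without the tag block 13 rose and 14 fell. The median log2 fold over all genes tested was 0.0034. Over 5 random thinnings 86 genes rose and 46 fell each time.

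Some genes of early stages and of receptor signalling rose in Kit-positive members. Of 4 early progenitor genes tested 3 rose and none fell, and of 9 genes of erythropoietin and Kit signalling 3 rose and none fell. From 3 late erythroblast genes tested 1 fell, Isg20, which did not pass with DESeq2, without the block or without tag 3. Over all genes tested 4.99% rose and 2.85% fell. Myb had 498, 720.1 and 374 CPM in Kit-positive members and 263, 341 and 242 CPM in Kit-negative members, a log2 fold of 0.81 ± 0.14 (SE; adjusted p = 0.000848); it did not pass without the block. Gata2 had 129, 56.3 and 34.3 CPM in Kit-positive members and 27.6, 26.5 and 13.8 CPM in Kit-negative members (log2 fold 1.53, adjusted p = 0.00744). Gata2 did not pass with DESeq2, without the block, without tag 1 or in 1 of the 5 thinnings, and its fold went down to 0.72. Runx1, Igf1r, Nr3c1 and Pim1 rose as well, by 0.95, 1.05, 1.03 and 0.87 on the log2 scale. None of the 4 passed with DESeq2 or without the block, and Pim1 passed in 1 of the 5 thinnings. Cdk6, a kinase of G1 that keeps progenitors dividing, had 474, 734 and 521 CPM in Kit-positive members and 270, 265 and 186 CPM in Kit-negative members (log2 fold 1.25 ± 0.15, adjusted p = 1.2e-05), with no overlap between the classes.

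Among the 10 largest folds upward were Scin (2.18), St8sia6 (1.96), Dach1 (1.93), Pcdh7 (1.88), Sox4 (1.69), Nr4a2 (1.68), Maml3 (1.64), Muc13 (1.61) and Zfp654 (1.59, all log2). Scin, an actin-severing protein, had 94.1, 129 and 44.6 CPM in Kit-positive members and 12.3, 53.1 and 6.06 CPM in Kit-negative members. Muc13, a membrane mucin, had 161, 180.0 and 148 CPM in Kit-positive members and 61.3, 97.3 and 30.3 CPM in Kit-negative members; it passed under all 14 other settings, while St8sia6 passed in 2 of 5 thinnings. Dach1 did not pass without the block or in 1 thinning, where its fold was 0.31 (edgeR, adjusted p = 0.568). The nuclear RNA Malat1 rose by 1.17 (log2, adjusted p = 7.27e-07), with 4180.0, 6585 and 3133 CPM in Kit-positive members and 2202, 1845 and 1657 CPM in Kit-negative members. Its share moves with how much nuclear RNA a droplet holds, and its part in the other folds was not tested.

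Both adult globin genes that could be tested, Hbb-bs and Hba-a1, fell: Hbb-bs had 19.6, 19.7 and 30.0 CPM in Kit-positive members and 248, 261 and 5591 CPM in Kit-negative members, and its log2 fold was -6.87. Without the 2 globin-richest members, which were both Kit-negative, it was -2.86, and that of Hba-a1 was -2.36 in place of -5.35. Of 5 haem enzymes tested 2 fell and none rose, beside 2.85% of all genes tested that fell. Cpox had 70.6, 78.8 and 139 CPM in Kit-positive members and 153, 142 and 203 CPM in Kit-negative members (log2 fold -0.77 ± 0.19, adjusted p = 0.0154), and did not pass with DESeq2, without the block or without tag 1. Alad (-0.45, adjusted p = 0.0872), Urod (-0.47, adjusted p = 0.206) and Fech (-0.62, adjusted p = 0.166) did not pass.

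Of 13 genes of haem and iron transport 6 fell and none rose, beside 2.85% of all genes tested that fell. Among the 6 were Fth1 and Ftl1, the chains of the iron store ferritin, Tmem14c, Hebp1 and Glrx5. Fth1 had 1729, 1932 and 2224 CPM in Kit-positive members and 3234, 3030.0 and 3494 CPM in Kit-negative members, a log2 fold of -0.77 ± 0.09 (adjusted p = 7.01e-06). Among surface genes Rhd had 47.1, 53.4 and 95.3 CPM in Kit-positive members and 150.1, 168 and 178 CPM in Kit-negative members (log2 fold -1.26, adjusted p = 0.000637). Cldn13 fell by 2.09, though it did not pass with DESeq2, and the adhesion gene Cd24a fell by 1.29. Epb41 and Mfsd2b rose, by 0.85 and 0.76, in 3 and 1 of the 5 thinnings. Of the enzymes Prdx2 (-0.83), Gpx1 (-0.40), Blvrb (-0.49) and Ctse (-1.02) fell; Gpx1 passed in 9, Blvrb in 10 and Ctse in 12 of 14 other settings. The other genes with the largest folds downward were Carhsp1 (-1.80), Nxpe2 (-1.71), Mgst3 (-1.42), Hebp1 (-1.41) and Crip2 (-1.40). Crip2 passed in 9 of 14 other settings, with a fold as small as -0.28.

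Of 15 lineage factors tested 1, E2f4, fell and none rose (edgeR, log2 fold -0.95, adjusted p = 0.00704). E2f4 did not pass with DESeq2 and passed in 4 of the 5 thinnings. Gata1 had 66.7, 73.1 and 69.5 CPM in Kit-positive members and 91.9, 70.8 and 95.2 CPM in Kit-negative members (log2 fold -0.38 ± 0.23, adjusted p = 0.316). Epor had 54.9, 64.7 and 54.1 CPM in Kit-positive members and 52.1, 53.1 and 66.6 CPM in Kit-negative members (log2 fold -0.13 ± 0.25, adjusted p = 0.784), and the classes overlap. Of 41 S phase genes 3 fell (Rrm2, Rpa2 and Slbp), and of 36 genes of G2 and M phase 3 fell (Cdk1, Tubb4b and Cenpa), while none rose. Over all genes tested 2.85% fell and 4.99% rose, and nothing is read from the counts of these lists or of the lineage factors. Rpa2 passed in 2, Rrm2, Cdk1 and Cenpa in 3, and Slbp and Tubb4b in 4 of the 5 thinnings, and none of the 6 passed with DESeq2 or without the block. Mki67 had 278, 166 and 285 CPM in Kit-positive members and 88.8, 159 and 211 CPM in Kit-negative members, a log2 fold of 0.60 ± 0.20 that did not pass (adjusted p = 0.0678). Beside Cdk6, the kinase gene Cdk4 and Ccne1 fell, by 0.50 and 0.89, with Cdk4 in 1 and Ccne1 in 2 of the 5 thinnings. None of the 3 NK markers tested rose or fell.

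**Figure D4:**
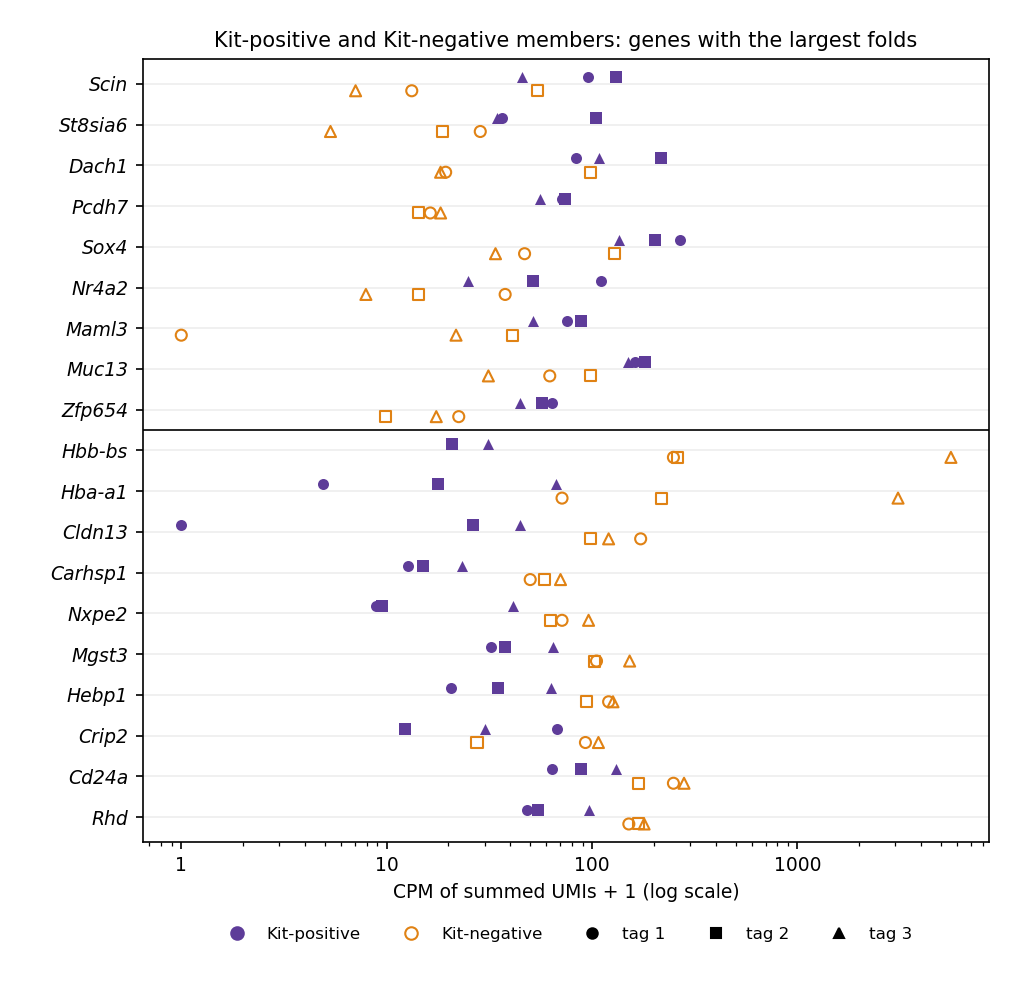
Levels in Kit-positive (filled) and Kit-negative (open) members of genes among the 10 largest log2 folds upward (above the line) and the 10 largest downward; the horizontal axis is CPM plus 1 on a log scale and the symbols are the 3 tags. Hbb-bs spans 19.6 to 30.0 CPM in Kit-positive members and 248 to 5591 CPM in Kit-negative members.

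A split by haemoglobin is given as values because tag 2 had only 4 members with a globin UMI at 10500 UMIs. There were 39 such members (6, 4 and 29 by tag) and 69 without one (13, 17 and 39), with median totals of 34720 and 32924 UMIs. Cpox had 172, 263 and 252 CPM in globin-positive members and 91.2, 50.3 and 113 CPM in globin-negative members. Rhd averaged 239 ± 89.7 CPM in globin-positive members and 58.8 ± 35.2 CPM in globin-negative members (SD, n = 3 tags each). Myb was lower in all tags, with 295, 201 and 183 CPM in globin-positive members and 400.1, 695 and 399 CPM in globin-negative members. Kit averaged 61.9 ± 20.7 CPM in globin-positive members and 118 ± 42.1 CPM in globin-negative members, and in tag 1 the order was the other way, with 85.8 CPM in globin-positive and 78.5 CPM in globin-negative members. Gata1 had 107, 90.1 and 99 CPM in globin-positive members and 68.4, 66.3 and 70.3 CPM in globin-negative members, with no overlap.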

How the data were processed

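The deposited values are whole UMI counts, which the authors made with Cell Ranger 7.0.0 per the file headers: counts per gene and barcode with counts of lipid tags. The submitters' processing notes list Cell Ranger, Seurat and the mm10 build; which annotation was used, and how introns were handled, was not given in the sources used here. Of 16384 deposited barcodes 15742 passed the limits on genes and mitochondrial UMIs; 3540 of these had several tags and 508 none, and both were left out. Tag cutoffs were 140, 196 and 138 UMIs. Gene UMIs summed to 18565224, 23060242 and 22404924 in the analysed barcodes of tags 1, 2 and 3, and to 617328, 590005 and 2354306 in members.

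The members and lists were chosen with earlier results of these data known. Because the rule used the contrast of members with other barcodes, it is described by CPM per tag, ratios with 20 CPM added and counts of genes at least 2-fold apart in each of 3 tags, with no test. Kit-positive and Kit-negative members were compared with edgeR 4.0.16 (quasi-likelihood test, TMM scaling, filterByExpr, adjusted p below 0.05) in R 4.3.3 on full counts summed per class and tag. Classes came from counts thinned to 10500 UMIs. Both classes of a tag come from the same tagged cells, so the tag was a block. The p-values measure only how much the difference between the 2 classes varied from tag to tag. The planned minimum of 10 cells per class and tag was not reached, and the fit was run with at least 5; the split by haemoglobin was not fitted. Kit, Klf1, Car1 and Car2 were kept out of the calls. Fits were tested on simulated data. DESeq2 1.42.0 was an alternative. Named are genes of the lists, the 15 largest and 5 smallest ratios to other barcodes, and the 10 largest folds each way that passed, reached 50 CPM in the higher class and moved alike in 3 tags; Malat1 was named after its values were seen. Intervals are Clopper-Pearson, and the limit for a count of 0 is 3 counts. Promoters come from RefSeq's annotation of GRCm38.p6. By gene identifier 32158 of 32285 genes matched GENCODE's annotation of GRCm38, which was not used for the promoters. A few genes of the lists are not reported here.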

Additional observations from a re-analysis of the deposited data

Results flagged for a closer look

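Barcodes above the limit of 6000 genes were outside every comparison, and 73 of the 155 with a single tag met the same rule for Klf1, Car1, Car2 and Klre1 (47.1%, exact binomial 95% interval 39.0 to 55.3%). A count of 0 would have allowed a share of up to 1.94%. They were 9, 14 and 50 by tag. Their adult globin genes summed to 550.0 CPM.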

How the results depend on the processing

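The share of members with a Mki67 UMI was 76.7% unthinned, 44.4% with at least 2 UMIs and 22.5% at 2500 UMIs, and 50% to 66.7% when a tag was left out. In NK barcodes it was 2.38% at 2500 UMIs. Haemoglobin-positive members numbered 60 from unthinned counts and 10 to 35 when a tag was left out. For Kit-positive against Kit-negative members DESeq2 gave 23 genes that rose and 18 that fell; without the replicate block 13 rose and 14 fell; without a filter on low counts 234 fell; with at least 2 Kit UMIs against 0, 438 rose. Leaving out a tag gave 114 to 170 genes that rose and 63 to 162 that fell. Hbb-bs in members over other barcodes turned to -1.06 (log2) without the 2 globin-richest members, with the globin-rich other barcodes kept. The Epor fold between Kit classes, -0.13 and not called, was -0.28 to 0.12 when a tag was left out and 0.026 in the third thinning. The causes were not tested, beyond the lower depth, the smaller number of cells or the 2 members that a setting itself takes away. Hbb-bs, Fth1, Ftl1, Tmem14c, Prdx2, Rhd, Cd24a, Mgst3, Muc13, Cdk6 and Malat1 were among those that passed under all 14 alternatives; Myb and Hba-a1 failed without the replicate block. Of the values of single genes 675 kept their direction and side of the threshold, 152 lost the call, 20 moved and 3 reversed. Fits on unthinned Kit classes and with at least 2 UMIs of each rule gene were not run because a class had under 5 cells in tag 2, and no member lacked all other NK transcripts.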
